A study of Danio rerio with 6 samples.

Results

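The high-numbered known miRNAs of zebrafish were compared between ZF4 cells at 28°C and cold acclimated ZF4 cells. These miRNAs are the known entries of the table whose number in the miRNA database miRBase is 700 or more, whatever the letter or strand suffix. dre-miR-731 was left out by the rule, and the predicted miRNAs, which carry an N before their number, do not belong to them. The rule found 43 mature miRNAs, here called the members, among 349 known miRNAs and 414 miRNAs in all. The members carry 33 different numbers, from dre-miR-722 upwards, and for 10 of these numbers both strands of the hairpin are in the table. The rule used names only and no measured value, although the members were chosen with earlier results of these data known. The nearest known number under the limit was 499.

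ZF4 is a fibroblast line derived from zebrafish embryos. The control group was 3 small RNA libraries from cells grown at 28°C, for which the study states 30 days and the labels no duration. The cold acclimation group was 3 libraries from cells of this line held at 18°C for 30 days. That period at 18°C began the day after seeding and used the control medium. The labels name no other treatment and no genetic change in either group, and the model is a single cell line in culture rather than a fish. The labels number 3 samples in each group without saying whether they came from separate cultures, so the p-values measure only the spread between these samples, which may be technical. Levels are given in TPM, as the authors named them, which here means reads of a miRNA per 1000000 miRNA reads of a library, with no term for length.

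A miRNA is cut from a hairpin transcript, first in the nucleus by the Microprocessor of Drosha and Dgcr8 and then by Dicer. The 5p strand comes from the left side of the hairpin and the 3p strand from the right side, and usually 1 of them is loaded into Argonaute and represses mRNAs that pair with its seed. miRBase numbers are given in order of discovery, so members with neighbouring numbers need not share a seed or a target. Many members were first found by sequencing small RNAs of zebrafish, while dre-miR-1306, dre-miR-1388, dre-miR-1788 and dre-miR-2188 have counterparts of the same number in birds or mammals. For most members no role is known, and roles are named below only where they are established. Conservation was not tested here.

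The forward primers used in the study for qRT-PCR of dre-miR-729, which rose, and dre-miR-2184, which fell, are shown because they are the sequences used here that identify members whose level changed. They are DNA, written 5′ to 3′, and the source does not mark where the mature strand starts within them.
dre-miR-729 primer: catgggtatgatacgacctgggtt
dre-miR-2184 primer: acgcgaacagtaagagtttatgtgct
The first is 24 bases long with 50.0% G and C, and the second is 26 bases long with 42.3% G and C.

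A library held 11748241 to 14960610 miRNA reads, so that a single read was worth 0.0668 to 0.0851 TPM. miRNAs of mesenchymal cells, fixed as a list of 8 that includes dre-miR-21, dre-miR-143 and dre-miR-199-5p, were all present and summed to 490045 to 508741 TPM in control libraries and 411095 to 455943 TPM in cold acclimation libraries. Most of that sum was dre-miR-21, with a mean of 390450 and 395160 TPM, while 6 of the 8 had a lower mean after cold acclimation, among them dre-miR-100-5p with 96179 and 23790 TPM and dre-miR-214 with 1272 and 365 TPM. Lists for other cell types were far lower, with 3 muscle miRNAs at 2.04 to 5.61 TPM, 4 blood miRNAs at 0.948 to 4.37 TPM and 7 epithelial miRNAs at 95.2 to 190 TPM over the 6 libraries. The muscle miRNA dre-miR-1 and the blood miRNA dre-miR-223 were at 0 in at least 1 library. The neural list of 4 miRNAs summed to 438 to 518 TPM in control and 532 to 659 TPM in cold acclimation libraries. Most of that sum was dre-miR-128-3p, with a mean of 450 and 581 TPM, while 2 of the 4 had a lower mean after cold acclimation and 2 a higher one. The early embryonic miR-430 strands summed to 34.97 to 203.6 TPM at 28°C and 182 to 254 TPM at 18°C. Their part in the results below was not tested. Control replicate 3 stood apart from the other controls, and the members that deviated most in it are also given without it.

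The members were minor miRNAs of these cells. Together they held 2389, 2229 and 2847 TPM in control replicates 1, 2 and 3, and 1779, 1950 and 1414 TPM in cold acclimation replicates 1, 2 and 3. The sum was thus lower in every cold acclimation library, with a mean of 2488 ± 321 TPM at 28°C and of 1715 ± 274 TPM at 18°C (SD, n = 3 each). Only 3 members were among the 100 known miRNAs with the highest mean level. These were dre-miR-2184, dre-miR-737-5p and dre-miR-735-5p, with ranks of 61, 77 and 89.

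dre-miR-2184 accounted for most of the net difference in the sum. It held 35.5%, 32.2% and 45.4% of the member reads in controls and 16.1%, 14.1% and 16.5% of them after cold acclimation. Without it, the most abundant member and the one with the largest fall, the others summed to 1535 ± 22.2 TPM at 28°C and 1449 ± 250.1 TPM at 18°C (SD, n = 3 each), a difference smaller than the SD after cold acclimation. Falls and rises partly offset each other in this sum. Without both strands of dre-mir-735 as well, the rest summed to 959 ± 27.1 TPM at 28°C and 1193 ± 214 TPM at 18°C. The groups overlapped in that sum, with cold acclimation replicate 3 at 973 TPM and control replicate 3 at 988 TPM. All members left out of it had fallen, so their removal by itself raises the rest at 18°C relative to 28°C. No members that rose were left out in turn. The share of dre-miR-2185-5p in the member reads went from 2.07% ± 1.04 to 14.2% ± 0.435, and that of dre-miR-722 from 1.74% ± 0.183 to 6.62% ± 0.0477.

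**Figure D1:**
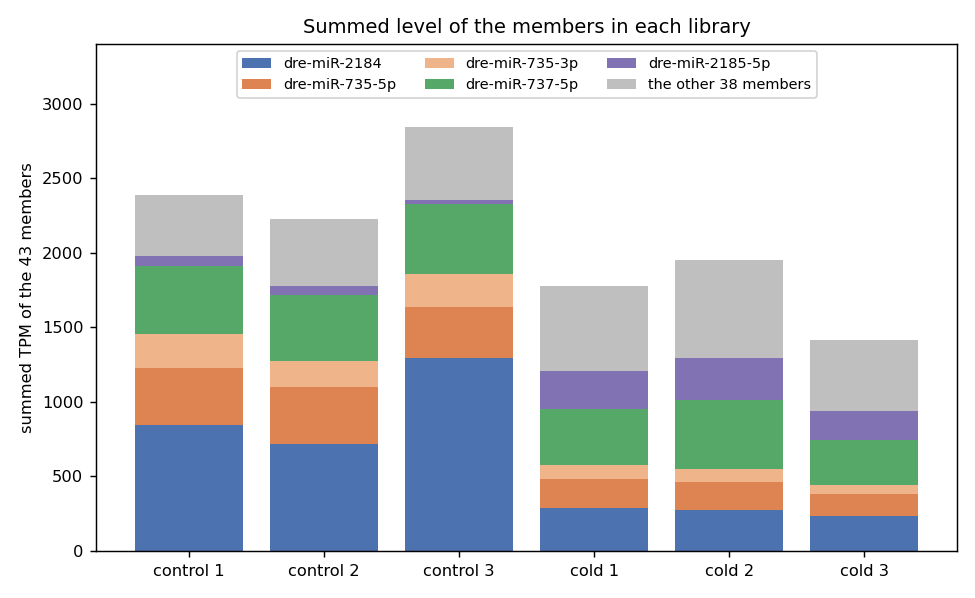
Summed TPM of the 43 members in each of the 6 libraries (bars), split into the 5 members with the highest mean and the other 38. The control bars reach 2229 to 2847 TPM and the cold acclimation bars 1414 to 1950 TPM, the dre-miR-2184 part is smaller in every cold acclimation library, and the dre-miR-2185-5p part is larger.

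Among the members, as many rose as fell. Of the 43, 25 passed the filter on low levels, a mean TPM of more than 1.5, and were tested with limma on log2(TPM + 1) together with the other miRNAs of the table. The mean was taken over all 6 libraries. dre-miR-736, with means of 4.68 TPM in control and 0.946 TPM in cold acclimation libraries, exceeded it in 1 group only. So did dre-miR-2185-3p, with 0.943 and 2.68 TPM. A member is said to rise or fall at an adjusted p under 0.01 (Benjamini-Hochberg, over all 310 tested miRNAs). By this rule 5 members rose, which is 20% against 16.5% of all tested miRNAs, and 5 fell, which is 20% against 14.5%. With a fold change above 2.5 in addition, 3 members were higher (12%, against 7.42% of all tested miRNAs) and 3 were lower (12%, against 4.19%). Among the other known miRNAs alone, 17.3% rose and 10.5% fell, and 7.73% were higher and 2.27% lower past 2.5-fold. No difference between the members and the other miRNAs was tested. The libraries of the groups did not overlap in 17 of the 25 members, with cold acclimation higher in 7 and lower in 10, while over all tested miRNAs this held for 29.7% and 28.4%. The 10 include dre-miR-736.

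The tested members had a median log2 fold change of -0.07, against 0.02 over all 310 miRNAs. Taken without sign, the median log2 fold change was 0.91 for the members, 0.50 for the other known miRNAs and 0.74 for the predicted miRNAs. This was given as a description only. Members had a lower level than other known miRNAs, with a median over the tested ones of 19.8 against 98.2 TPM. The median SD of log2(TPM + 1) between replicates was 0.25 for the members and 0.23 for the other tested miRNAs in controls, and 0.29 and 0.20 after cold acclimation.

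**Figure D2:**
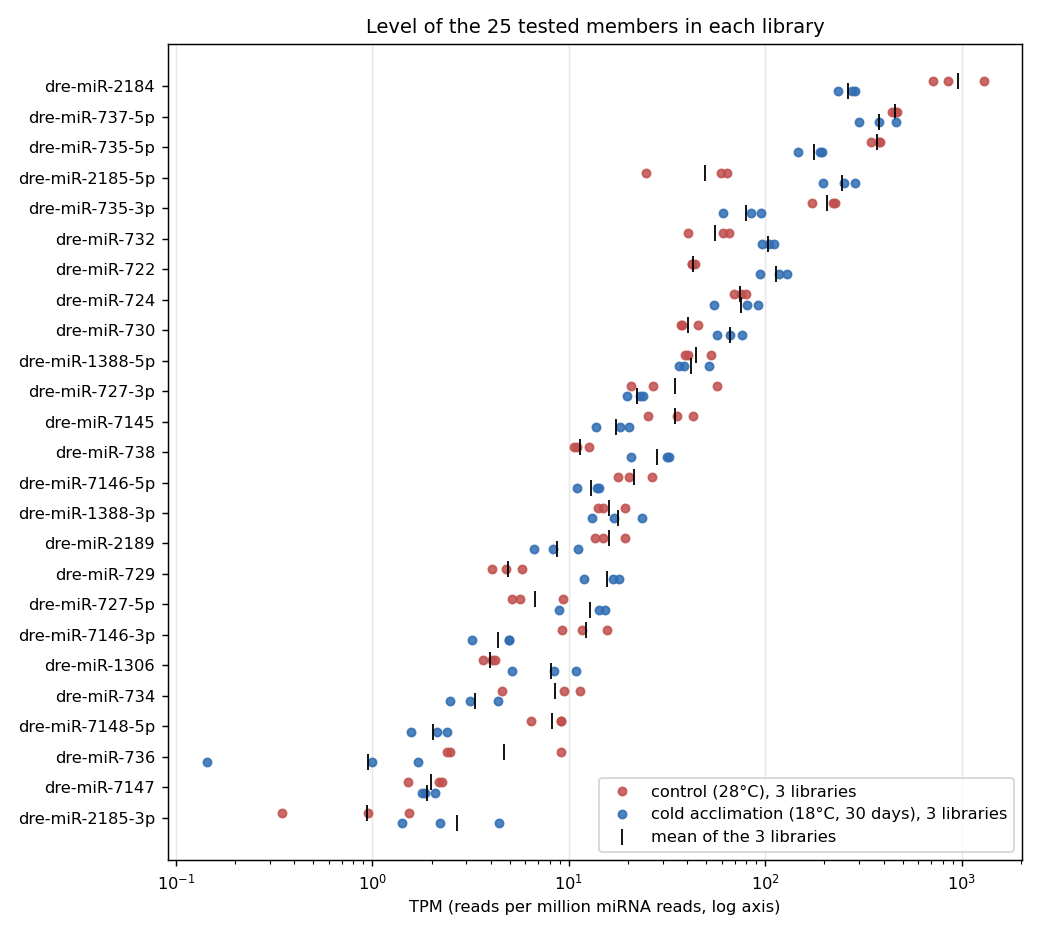
Level of the 25 tested members in TPM on a log axis, with a point for each of the 3 control and 3 cold acclimation libraries and a bar at the mean of each group. Members are ordered by their mean level, from dre-miR-2184 with 609 TPM to dre-miR-2185-3p with 1.81 TPM, and points of the groups separate for 17 members.

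The split between members that rose and fell depended on the scaling. Scaling by median-of-ratios gave 5 members that rose and 8 that fell of 25, while over all 310 tested miRNAs 16.5% rose and 21.6% fell. With the clean reads of each library in place of its miRNA reads, 4 members rose and 8 fell, against 10.3% and 24.8% of all tested miRNAs. With a total that omits the 2 miRNAs dre-let-7a and dre-miR-100-5p, 4 members rose and 7 fell, against 11.9% and 20.6%. More falls and no more rises were thus called over the whole table as well as among the members. The median log2 fold change of all tested miRNAs shifted by -0.29 with clean reads and by -0.15 with the latter. Of the 10 members called, 9 were called under each of these scalings, and the exception was dre-miR-732 in every case.

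dre-miR-2185-5p had the largest rise of the tested members. Its level was 64.0, 59.4 and 24.8 TPM in controls and 251, 287 and 196 TPM after cold acclimation. Every cold acclimation library was therefore above every control library, with control replicate 3 the lowest of all. The log2 fold change was 2.38 (standard error 0.33, 95% confidence interval 1.63 to 3.13, adjusted p = 0.00040 from limma). RefSeq lists 3 hairpin genes of this miRNA, each overlapping a protein-coding gene, among them pimr60 and pimr62, which are Pim-related kinase genes. Reads from these copies cannot be told apart in the table.

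dre-miR-729 rose from a low level. It had 4.08, 4.81 and 5.79 TPM in the control libraries and 16.8, 18.0 and 11.9 TPM in the cold acclimation libraries, so that the lowest cold acclimation value lay above the highest control value. The log2 fold change was 1.48 (standard error 0.23, adjusted p = 0.00076 from limma), and the ratio of the mean TPM was 3.18. Its log2 fold change was under the 2.5-fold threshold with clean reads (1.19) and with log2(TPM + 5) (1.05). Its hairpin lies between opn1sw1, an opsin gene of cone photoreceptors, and tnpo3, a nuclear import receptor gene.

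dre-miR-722 had the closest control replicates among the tested members. In zebrafish, forced expression of this miRNA in neutrophils is known to lower rac2 and to slow their migration. It had 42.2, 42.5 and 44.0 TPM in the control libraries and 117, 129 and 94.4 TPM in the cold acclimation libraries. Cold acclimation libraries were all higher, with replicate 3 the lowest of them. The log2 fold change was 1.37 (standard error 0.19, adjusted p = 0.00039 from limma), just past the 2.5-fold threshold of 1.32 on this scale. It was under that threshold, though still called as risen, with clean reads (1.07), with median-of-ratios scaling (1.28), with the 2 miRNAs omitted (1.22), with log2(TPM + 5) (1.29) and without cold acclimation replicate 2 (1.27). The hairpin overlaps gcgrb, a glucagon receptor gene.

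dre-miR-738 and dre-miR-732 rose by less than 2.5-fold. dre-miR-738 had 12.7, 10.6 and 10.97 TPM in the control libraries and 31.6, 32.5 and 20.6 TPM in the cold acclimation libraries. The groups did not overlap, and the log2 fold change was 1.21 (standard error 0.23, adjusted p = 0.0023 from limma). Its adjusted p was 0.017 when cold acclimation replicate 1 was left out, and 0.014 when replicate 2 was. The RefSeq annotation lists a gene of the rRNA class that overlaps its hairpin, and a long non-coding RNA gene that does too.

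dre-miR-732 had 65.4, 60.6 and 40.3 TPM in the control libraries and 95.7, 110.3 and 104 TPM in the cold acclimation libraries. The groups did not overlap, and the log2 fold change was 0.91 (standard error 0.22, adjusted p = 0.0071 from limma). This call was the least stable of the 10 called members. It did not hold with no filter, under the 3 other scalings, with a replicate block, or without control replicate 2 or any 1 of the cold acclimation replicates, where the adjusted p from limma lay between 0.012 and 0.054. Its hairpin has no overlapping gene in RefSeq and lies between spegb, a gene of striated muscle, and ctdsp1.

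dre-miR-2184 had the largest fall of the tested members on the log2(TPM + 1) scale and the highest level among them. It had 848, 718 and 1293 TPM in controls and 286, 275 and 234 TPM after cold acclimation. The lowest control value was thus more than the highest cold acclimation value, and the spread among controls came mainly from control replicate 3. The log2 fold change was -1.80 (standard error 0.22, 95% confidence interval -2.30 to -1.31, adjusted p = 0.00021 from limma), and the call held in each of the 15 alternatives run for it. dre-miR-2184 has an Ensembl identifier of its name and no entry of that name in the RefSeq table.

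dre-miR-7148-5p fell from 6.42, 9.12 and 9.10 TPM in the control libraries to 2.40, 2.13 and 1.58 TPM in the cold acclimation libraries. All cold acclimation libraries were lower than all control libraries, on 22 to 29 reads in each against 96 to 132 reads. Its log2 fold change was -1.60 (standard error 0.22, adjusted p = 0.00040 from limma), and the ratio of the mean TPM was 0.248. The hairpin overlaps slc25a42, a mitochondrial carrier gene. With log2(TPM + 5) in place of log2(TPM + 1) its log2 fold change was -0.90, since the added value is then close to the level itself.

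dre-miR-7146-3p fell, while its partner strand had a lower mean after cold acclimation and did not pass the test in TPM. The 3p strand had 9.22, 11.7 and 15.7 TPM in the control libraries and 4.97, 4.94 and 3.22 TPM in the cold acclimation libraries. Its groups did not overlap, and its log2 fold change was -1.29 (standard error 0.25, adjusted p = 0.0026 from limma). This was just short of 2.5-fold, while the ratio of the mean TPM was 0.358. It was past 2.5-fold with clean reads (-1.51), median-of-ratios scaling (-1.36), the 2 miRNAs omitted (-1.435) and log2(TPM + 0.1) (-1.45). With log2(TPM + 5) it was -0.86, and with 1 library left out it ranged from -1.455 to -1.1. The adjusted p was 0.011 when cold acclimation replicate 1 was left out, 0.012 when replicate 3 was, and again 0.012 in the fit with a replicate block. dre-miR-7146-5p had 17.7, 20.3 and 26.4 TPM against 13.9, 14.2 and 10.96 TPM, also without overlap, with a log2 fold change in limma of -0.67 (adjusted p = 0.029). It passed with clean reads (-0.94, adjusted p = 0.0025) and with median-of-ratios scaling (-0.76, adjusted p = 0.0075), so that the call of this strand depended on the scaling. The hairpin overlaps ccnk, the gene of cyclin K.

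Both strands of dre-mir-735 fell. dre-miR-735-5p had 380.1, 384 and 345 TPM in controls and 194, 189 and 146 TPM after cold acclimation, without overlap (limma: log2 fold change -1.07, SE 0.18, adjusted p = 0.0010). dre-miR-735-3p had 226, 172 and 220.0 TPM in the control libraries and 95.3, 84.4 and 60.9 TPM in the cold acclimation libraries, again without overlap (limma: log2 fold change -1.36, SE 0.22, adjusted p = 0.00086). In TPM only the 3p strand passed the 2.5-fold threshold. The 5p strand also passed it with clean reads (-1.37), and the 3p strand did not pass it without control replicate 1 (-1.29), control replicate 3 (-1.31) or cold acclimation replicate 3 (-1.18), or, narrowly, with log2(TPM + 5).

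The annotation gives dre-mir-735 another identity. RefSeq names its gene rny2, with dre-mir-735 as a synonym, and rny genes encode Y RNAs, small non-coding RNAs bound by the Ro60 protein. Similarly, dre-mir-733 carries the synonym vtrna4, a vault RNA name, vault RNAs being part of the vault ribonucleoprotein particle. Together with dre-mir-738, which overlaps an rRNA-class gene, these are 3 hairpin numbers whose locus RefSeq links to a Y RNA, a vault RNA or an rRNA. Overlap with a long non-coding RNA gene alone, as for dre-mir-725, dre-mir-726 and dre-mir-7145, was not counted here. Whether the reads of these members are processed miRNAs or pieces of the other RNAs was not tested, as the table gives reads by name only. Without the members of these 3 hairpins, 4 of 22 tested members rose and 3 fell. That is 18.2% and 13.6%, against 16.5% and 14.5% of all 310 tested miRNAs. dre-miR-733 was not among the tested members, being under the filter, with 6, 13 and 26 reads in controls and 16, 19 and 24 reads after cold acclimation, which overlap.

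**Figure D3:**
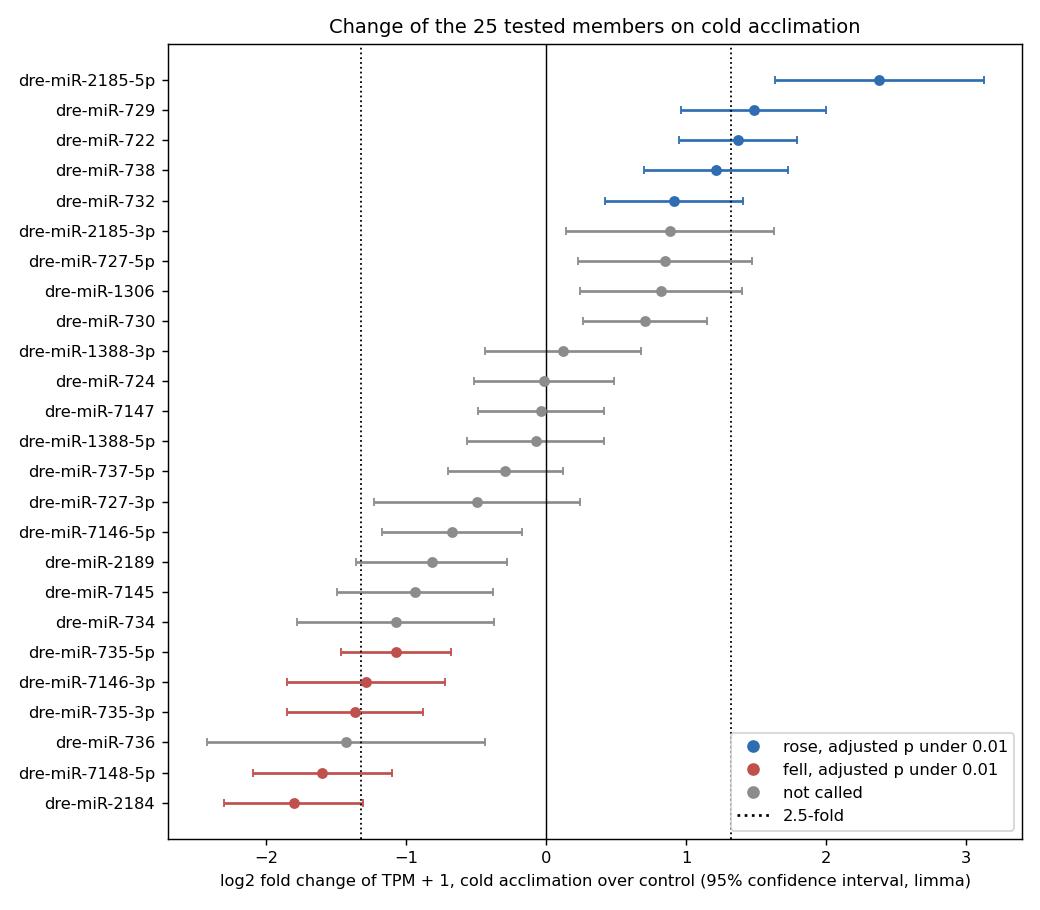
log2 fold change of TPM + 1, cold acclimation over control, for the 25 tested members (points) with 95% confidence intervals from limma (bars), blue where a member rose and red where it fell at an adjusted p under 0.01. The dotted lines mark a fold change of 2.5, and dre-miR-2185-5p at 2.38 and dre-miR-2184 at -1.80 lie farthest out among the members called.

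The remaining 15 tested members did not pass the adjusted p of 0.01, and 9 of them had an unadjusted p under 0.05 from limma. Counting those called, an unadjusted p under 0.05 was found for 19 of the 25 tested members and 174 of all 310 tested miRNAs. The 19 include dre-miR-736 and dre-miR-2185-3p, which passed the filter through 1 group only. dre-miR-730 had 37.8, 45.7 and 37.4 TPM in control and 66.2, 76.4 and 56.9 TPM in cold acclimation libraries, with a log2 fold change in limma of 0.70 (adjusted p = 0.014). dre-miR-1306, whose hairpin overlaps dgcr8, had 4.08, 4.23 and 3.66 TPM against 8.36, 10.8 and 5.16 TPM, with a log2 fold change in limma of 0.82 (adjusted p = 0.023). The gene dgcr8 encodes the RNA-binding partner of Drosha. In both members the groups did not overlap. In the alternatives, dre-miR-1306 passed in 1 of 14, without cold acclimation replicate 3 (adjusted p = 0.0070 from limma). dre-miR-730 passed in 1 of 15, with median-of-ratios scaling (adjusted p = 0.0053 from limma). In the other alternatives their adjusted p from limma reached 0.092 and 0.071.

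On the lower side, dre-miR-7145 had 25.3, 35.5 and 42.97 TPM in control and 18.1, 20.3 and 13.8 TPM in cold acclimation libraries, with a log2 fold change in limma of -0.93 (adjusted p = 0.011). It passed the threshold under the 3 other scalings and without control replicate 1. Its hairpin overlaps a long non-coding RNA gene, linc.sox4a, next to the transcription factor gene sox4a. dre-miR-2189 had 13.6, 14.9 and 19.3 TPM against 8.28, 11.2 and 6.66 TPM, with a log2 fold change in limma of -0.82 (adjusted p = 0.017), and passed under the same 3 scalings. Neither member overlapped between the groups.

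Control replicate 3 weighed on a few members. On the log2(TPM + 1) scale it was more than 1 above the mean of the other controls in 2 tested members, dre-miR-736 and dre-miR-727-3p, and more than 1 below it in 2, dre-miR-2185-5p and dre-miR-734. No tested member differed by more than 1 between control replicates 1 and 2. dre-miR-734, whose hairpin overlaps the ephrin receptor gene epha6, had 9.42, 11.5 and 4.55 TPM in control and 2.48, 4.34 and 3.15 TPM in cold acclimation libraries. Its log2 fold change was -1.07 (adjusted p = 0.016 from limma) with all libraries and -1.42 (adjusted p = 0.00027 from limma) without control replicate 3. dre-miR-2185-5p was called with and without this library, with a log2 fold change of 1.95 without it, and no call of a member was lost without it.

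dre-miR-736 had the widest spread among control libraries. Its hairpin overlaps myh7, a gene of the myosin heavy chain of slow and cardiac muscle, and dre-mir-735 overlaps mybpc2b, a gene of myosin binding protein C. dre-miR-736 had 2.47, 2.41 and 9.17 TPM in control and 0.994, 1.70 and 0.143 TPM in cold acclimation libraries, on 2 to 133 reads per library. All cold acclimation values were below all control values, but the log2 fold change of -1.43 had a standard error of 0.45 (adjusted p = 0.022 from limma), and it passed the threshold in none of the alternatives. Without control replicate 3 the log2 fold change was -0.91 (adjusted p = 0.018 from limma). With another pseudocount it was -2.32 for log2(TPM + 0.1) and -0.64 for log2(TPM + 5). The muscle list summed to 2.90 to 5.61 TPM in control and 2.04 to 2.98 TPM in cold acclimation libraries, and its relation to these members was not tested.

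Some of the more abundant members differed little between the groups in TPM. dre-miR-737-5p, the second most abundant member, had 459.9, 444 and 471 TPM at 28°C and 378, 461 and 301 TPM at 18°C, which overlap. Its log2 fold change was -0.29 (95% confidence interval -0.70 to 0.12, adjusted p = 0.22 from limma). This depended on the scaling, with -0.59 for clean reads (adjusted p = 0.013 from limma) and -0.38 for median-of-ratios scaling (adjusted p = 0.028 from limma), neither of which passed. The hairpin overlaps ap2m1b, a gene of the clathrin adaptor complex. dre-miR-724, whose hairpin overlaps the copine gene cpne5b, had 69.4, 79.6 and 75.1 TPM against 80.7, 91.4 and 54.6 TPM, with a log2 fold change of -0.01 (95% confidence interval -0.51 to 0.48, adjusted p = 0.97 from limma). A change within these intervals cannot be told from the replicate spread. dre-miR-7147 had between 1.52 and 2.27 TPM in every library and a log2 fold change of -0.03 (95% confidence interval -0.48 to 0.42, adjusted p = 0.93 from limma).

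By number, the members from dre-miR-722 to dre-miR-740 had 4 that rose and 2 that fell among 13 tested. Those from dre-miR-2184 to dre-miR-2192 had 1 that rose and 1 that fell among 4 tested. In the group from dre-miR-7132 to dre-miR-7148, all 5 tested members had a log2 fold change below 0, and 2 of them fell. Their median was -0.93, and they include both strands of dre-mir-7146, and dre-miR-7147 at only -0.03. None of the 3 tested strands of dre-miR-1306 and dre-miR-1388 passed. Over all 310 tested miRNAs, 16.5% rose and 14.5% fell, and 149 had a log2 fold change below 0. These lists are small, and no difference between them was tested.

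The ratio of 5p to 3p takes both values from the same library, so it does not depend on how libraries are scaled. The strands of 1 hairpin gene share a precursor, but dre-mir-2185 has 3 hairpin genes. Both strands passed the filter for 5 hairpins. In dre-mir-727, the 3p strand was the more abundant one in every library, but less so in cold acclimated cells. The 5p strand reached 0.248, 0.210 and 0.165 of the 3p level in control and 0.641, 0.618 and 0.451 of it in cold acclimation libraries. Groups did not overlap, and log2(5p/3p) was -2.29 ± 0.30 in controls and -0.83 ± 0.28 after cold acclimation (SD, n = 3 each), a difference of 1.46 (exact two-sided permutation test, p = 0.1, the smallest possible with 3 against 3 libraries, and 0.25 when adjusted over the 5 hairpins).

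Neither strand of dre-mir-727 passed the test of its level, and their log2 fold changes had opposite signs. dre-miR-727-5p had 5.15, 5.62 and 9.38 TPM in control and 15.2, 14.3 and 8.95 TPM in cold acclimation libraries, with a log2 fold change in limma of 0.85 (adjusted p = 0.027). dre-miR-727-3p had 20.7, 26.7 and 56.9 TPM against 23.8, 23.2 and 19.8 TPM, with a log2 fold change in limma of -0.49 (adjusted p = 0.24). In each strand the groups overlapped, and control replicate 3 was the highest control for both. Without that library, the 5p strand had a fold change in limma of 1.08 on the log2 scale (adjusted p = 0.0027) and the 3p strand one of -0.08. The hairpin, like that of its neighbour dre-mir-728, overlaps tmtopsb, a teleost multiple tissue opsin gene.

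In dre-mir-7146, the 5p strand exceeded the 3p strand by a ratio of 1.92, 1.74 and 1.68 in control and 2.80, 2.88 and 3.40 in cold acclimation libraries. The mean log2 ratio was 0.83 ± 0.10 and 1.59 ± 0.15 (SD, n = 3 each), without overlap (difference 0.76, exact permutation test, p = 0.1, adjusted 0.25). For the other 3 hairpins the groups overlapped. The 5p to 3p ratio of dre-mir-735 was 1.57 to 2.23 in control and 2.03 to 2.40 in cold acclimation libraries (exact permutation test, p = 0.2). That of dre-mir-1388 was 2.61 to 2.89 and 2.19 to 2.76 (exact permutation test, p = 0.3). dre-mir-2185 was the most one-sided of the 5, with a ratio of 41.6 to 72 in control and 64.8 to 179 in cold acclimation libraries (exact permutation test, p = 0.2), on 5 to 52 reads of the 3p strand in a library. This test cannot give a p below 0.1 with 3 libraries a group, so it cannot pass a threshold of 0.05 for any strand ratio. The alternatives for the ratios were a pseudocount of 1 TPM, each library left out, and sign flips of libraries paired by replicate number. They cannot pass 0.05 either, and the smallest possible p of the sign flips is 0.25.

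**Figure D4:**
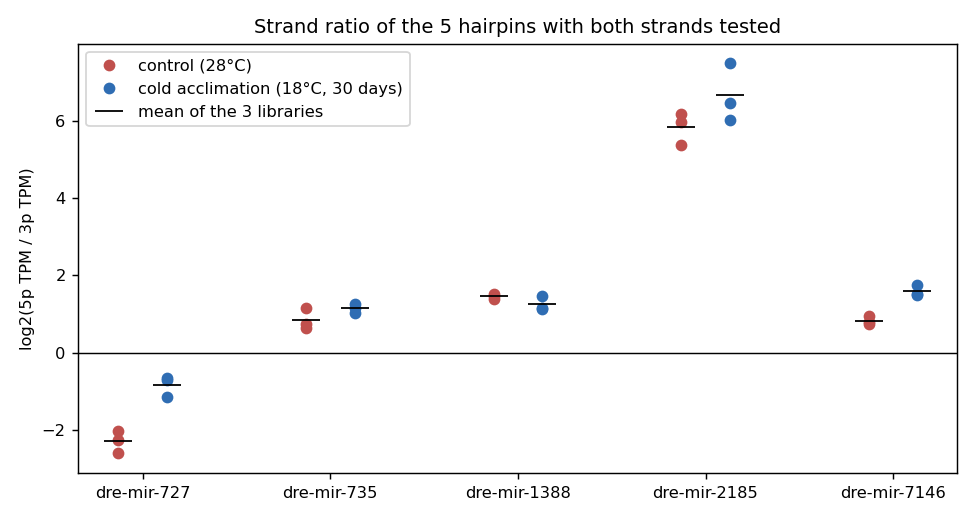
log2 of the ratio of 5p to 3p TPM for the 5 hairpins of which both strands were tested, with a point for each control and cold acclimation library and a bar at each mean. The groups separate for dre-mir-727 (means -2.29 and -0.83) and dre-mir-7146 (means 0.83 and 1.59) and overlap for the other 3.

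The strands of dre-mir-1388 overlapped between the groups. dre-miR-1388-5p had 40.5, 39.1 and 53.1 TPM in controls and 38.4, 51.5 and 36.2 TPM at 18°C (log2 fold change -0.07, 95% confidence interval -0.56 to 0.41, adjusted p = 0.82 from limma). For dre-miR-1388-3p the values were 14.0, 14.95 and 19.2 TPM and then 17.1, 23.5 and 13.1 TPM (log2 fold change 0.12, interval -0.44 to 0.68, adjusted p = 0.74 from limma). dre-miR-2185-3p, the rare strand of the member with the largest rise, had 1.54, 0.948 and 0.345 TPM in controls and 1.41, 4.43 and 2.22 TPM at 18°C. Its groups overlapped by control replicate 1, and its log2 fold change of 0.89 did not pass (adjusted p = 0.048 from limma).

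The other 5 hairpins with both strands in the table had too few reads of at least 1 strand. dre-mir-737 was the most uneven of them, with 33980 reads of the 5p strand and 35 of the 3p strand over the 6 libraries. For dre-mir-7132 and dre-mir-7133 the 3p strand prevailed, with 73 against 12 reads and 70 against 2 reads. dre-mir-2187 and dre-mir-2188 had 30 and 26 reads of the 5p strand and 9 and 16 of the 3p strand. At these numbers a strand can differ from library to library by counting error alone.

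In all, 18 members were under the filter, with at most 26 reads in a library. Members detected in all 6 libraries numbered 36, and 41 were detected in at least 1 library of each group. The other 2 were seen in control libraries alone, dre-miR-7133-5p with 2 reads and dre-miR-2192 with 1 read, where 3 reads, or 0.201 to 0.255 TPM depending on the library, are the level that 0 reads still allow. A difference in detection cannot be read from these.

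dre-miR-2187-5p was the member with the largest ratio among those under the filter. It had 0, 0 and 1 reads in controls and 8, 10 and 11 reads after cold acclimation, and the hairpin overlaps chrm3a, a muscarinic acetylcholine receptor gene. The groups did not overlap, and the ratio of the pooled reads per library size was 33.1, with an exact 95% interval of 5.49 to 1353 that covers counting error only. In the fit with no filter it was called, with a log2 fold change of 0.79 on the log2(TPM + 1) scale (adjusted p = 0.00037 from limma). Its partner strand had 1 read in controls and 8 after cold acclimation in total. dre-miR-1788-3p, whose hairpin overlaps the transcription factor gene fev, had 7 reads at 28°C and 24 at 18°C (ratio 3.92, interval 1.64 to 10.8), and in the fit with no filter an adjusted p of 0.033 from limma.

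Among the other low members, dre-miR-7133-3p had 48 reads at 28°C and 22 at 18°C without overlap of the groups (ratio 0.524, interval 0.301 to 0.884, adjusted p = 0.036 from limma with no filter). dre-miR-726, whose hairpin lies between the opsin genes opn1sw2 and opn1lw1, had 41 and 32 reads, and dre-miR-728 had 19 and 26 reads, with overlap in both. dre-miR-723-3p had 28 and 11 reads, dre-miR-725-3p 7 and 13 reads without overlap, dre-miR-2191 10 and 4 reads and dre-miR-740 2 and 1 reads. The hairpin of dre-miR-2192 overlaps pvalb3, a parvalbumin gene, and that of dre-miR-2188 overlaps ank1a, the ankyrin gene of red blood cells. No strand of dre-miR-2188 or dre-miR-2192 exceeded 0.88 TPM in any library.

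RefSeq has a gene for 32 of the 33 hairpin numbers, and 20 of these overlap a protein-coding gene. The table gives no strand, so that a hairpin may lie in the overlapping gene or opposite to it. Its assembly, GRCz12tu, is not the build named in the submitters' notes, so only names and neighbours were taken from it. Of the 10 members called, 6 belong to hairpins that overlap a protein-coding gene, a share near the 20 of 33 over all hairpin numbers. These 6 include both strands of dre-mir-735.

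Cold acclimation replicate 3 had the lowest value of the 3 cold acclimation libraries in 21 of the 25 tested members, and in 66.5% of all tested miRNAs. With median-of-ratios scaling the summed level of the members was 1662, 1661 and 1554 in the cold acclimation libraries, closer together than in TPM, and 2534, 2190 and 2877 in the control libraries. The sum was thus lower after cold acclimation under both scalings. As log2 of the ratio of means, it was -0.54 in TPM, -0.64 with median-of-ratios scaling and -0.43 without control replicate 3.

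All 10 members called kept their direction in every alternative, which for most alternatives was fixed in advance. The groups of these members did not overlap, so no other pseudocount and no library left out could turn a sign. Filters, known miRNAs alone and the replicate block left the log2 fold change as it was. Only the 3 other scalings could have turned one. The call itself was kept by dre-miR-2184, dre-miR-2185-5p, dre-miR-722, dre-miR-729, dre-miR-735-3p, dre-miR-735-5p and dre-miR-7148-5p in each alternative that tested them. The exceptions were dre-miR-732, dre-miR-738 and dre-miR-7146-3p, as given above.

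**Figure D5:**
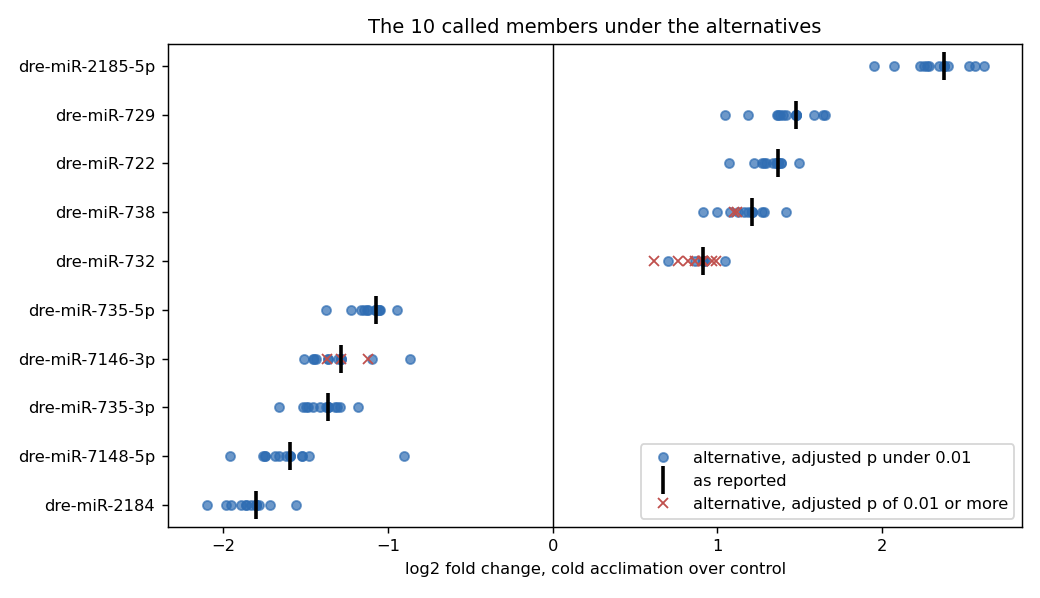
log2 fold change of the 10 called members as reported (black bars) and under the alternative settings (blue points where the adjusted p was under 0.01, red crosses where it was not). No member crosses 0, which only the other scalings could have changed, and crosses appear for dre-miR-732, dre-miR-738 and dre-miR-7146-3p only.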

How the data were processed

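Small RNA of ZF4 cells was sequenced as 50-bp single-end reads for 3 samples of each group. The authors kept reads of 17 to 35 nt, aligned them to miRBase 22 with Bowtie2 2.3.0, predicted further miRNAs with miRCat, and deposited CPM values, scaled to 1000000 miRNA reads per library, which they name TPM. danRer10 (GRCz10) is named in the submitters' notes. For reads that match more than 1 miRNA, the counting is not given in the sources. The values are whole multiples of 1 read, and read numbers were computed from them.

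log2(TPM + 1) of the 310 miRNAs with a mean above 1.5 TPM was compared between groups with limma 3.58.1 in R 4.3.3 (lmFit, eBayes with a trend) and Benjamini-Hochberg adjustment. The test was checked on simulated data with normal noise and known changes, a setting that leaves out differences in the scaling of libraries. Strand ratios were compared with exact permutation tests (scipy 1.17.1), and figures drawn with matplotlib 3.10.9. The members and lists were chosen with earlier results of these data known. Every member is accounted for, and members that passed the adjusted p of 0.01, the 5 most abundant and both strands of the hairpins tested are given by library, members under the filter by read numbers, and primer sequences for members that passed and have one. The clean reads used as an alternative library size came from the study's own listing. Names and neighbours of hairpins came from RefSeq (GRCz12tu). The alternatives were other pseudocounts (0.1 and 5), filters, scalings and thresholds, known miRNAs alone, a replicate block and each library left out in turn.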

Additional observations from a re-analysis of the deposited data

How the results depend on the processing

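Members that rose numbered 3 to 6 and members that fell 4 to 6 when 1 library was left out, against 5 and 5 with all libraries. Over all 310 tested miRNAs, 24 to 68 rose and 18 to 67 fell in these fits, against 51 and 45. The lowest number that rose was found without cold acclimation replicate 1 or 2. With an adjusted p under 0.05, 9 of 25 rose and 10 fell, against 75 and 77 of all 310 tested miRNAs. The 9 include dre-miR-2185-3p and the 10 include dre-miR-736, which passed the filter through 1 group only. Members that fell numbered 8 with clean reads as library sizes and 8 with median-of-ratios scaling, where 77 and 67 of all 310 fell. Past 2.5-fold, 1 was higher and 5 were lower with clean reads as library sizes, against 3 and 3 as reported. With log2(TPM + 5) these numbers were 1 and 1, and with log2(TPM + 0.1) they were 3 and 4. Counts past 2.5-fold over all 310 tested miRNAs were not made for these settings. The median log2 fold change of all tested miRNAs shifted by -0.29 with clean reads. The log2 ratio of the summed level went from -0.54 to -0.84 with clean reads. With a replicate block, 4 members rose and 4 fell, dre-miR-732 and dre-miR-7146-3p losing their call, while 39 and 30 of all 310 did. Whether the replicate numbers pair the samples is not known. The deviations of same-numbered libraries correlated with r = 0.015, 0.14 and 0.060, and those of differently numbered libraries with r from -0.089 to 0.0091. Signs turned only in members near 0, none of them called. dre-miR-1388-3p turned to -0.16 with clean reads, to -0.024 with a total that omits dre-let-7a and dre-miR-100-5p and to -0.086 without cold acclimation replicate 2. With 1 library left out, log2 fold changes ranged from -0.086 to 0.31 for dre-miR-1388-3p, from -0.23 to 0.061 for dre-miR-1388-5p, from -0.15 to 0.036 for dre-miR-7147 and from -0.17 to 0.20 for dre-miR-724. No strand ratio changed direction. The planned edgeR and DESeq2 fits were not run, and the tests were kept to the deposited CPM scale. Members of a few reads are limited by depth.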
